A study of Mus musculus with 16 samples.

Results

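Genes of the translation initiation factors (eIF) and elongation factors (eEF) were taken from the deposited tables by symbol. Of 24060 genes, 64 had a symbol that begins with Eif or Eef, and 61 of these (52 Eif and 9 Eef genes) averaged more than 1 CPM across all 16 libraries. CPM is a gene's read count scaled to the library's total on all genes. All 61 passed the expression filter in each comparison, so every member was tested. The libraries were made from somatosensory cortex of C57BL/6J Aldh1l1CreERT2-RiboTag mice aged 3 months. In these mice the astrocytic Aldh1l1 promoter drives a tamoxifen-dependent Cre, which switches on Rpl22, a protein of the large ribosomal subunit, with an HA tag, so that astrocyte ribosomes and the mRNA on them can be pulled from a lysate with an antibody against HA. Every mouse, the naïve mice included, received tamoxifen at 2 months, after which the labels allow 1 month and the study's methods 2 weeks. Naïve mice (named controls in the labels) stayed in the home cage, and stressed mice swam for 20 min and rested for 90 min. RNA from the immunoprecipitate (IP) and from the cleared lysate of all cells (INPUT) gave 4 groups of 4 libraries, IP and INPUT of naïve mice and IP and INPUT of stressed mice, which are called here by library number. The methods name 4 male and 4 female mice and an input for each IP, so both fractions came from the same 8 mice, but the labels do not say which libraries share a mouse.

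Translation starts when eIF2 brings the initiator tRNA to the small ribosomal subunit, eIF3 holds the complex together and the eIF4 factors recruit it to the capped end of the mRNA, and eEF1A and eEF2 then carry each round of elongation. Cells adjust this machinery mainly by phosphorylation: 4E-binding proteins sequester eIF4E, eIF2alpha kinases block the recycling of eIF2 by eIF2B, and eEF2 kinase inactivates eEF2. Transcript levels, which are all that was measured here, do not report these modifications. Neurons, but not most other cells, replace eEF1A1 by its paralogue eEF1A2 as they mature.

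The genes lay on 20 chromosomes, with at most 6 on any of them, and all 61 are annotated as protein coding in GENCODE M21 (GRCm38). Promoter windows of RefSeq (GRCm38.p6, 250 bases before to 50 after the annotated start) were found for 49 of the 61. Those of Eif2ak2, which was the most IP-enriched member, and of Eef2, the member with the most reads, are shown over the last 140 bases of the window, at chr17:78882523-78882662 on the minus strand and chr10:81176541-81176680 on the plus strand. Capitals mark matches on either strand to 5 motifs, namely the E-box CACGTG, the cAMP response element core TGACGT, the ETS motif CCGGAAGT, the TATA box TATAAA and the core of the interferon-stimulated response element (a pair of GAAA, 2 bases apart).
Eif2ak2: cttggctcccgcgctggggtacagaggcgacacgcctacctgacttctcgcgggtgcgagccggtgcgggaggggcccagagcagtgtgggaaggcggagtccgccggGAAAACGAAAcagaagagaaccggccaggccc
Eef2: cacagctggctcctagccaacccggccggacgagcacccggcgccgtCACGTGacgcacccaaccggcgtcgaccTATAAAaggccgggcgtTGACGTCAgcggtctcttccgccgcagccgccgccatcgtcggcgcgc
In Eif2ak2, which encodes the interferon-inducible kinase PKR, the match is to the core of the interferon-stimulated response element. This motif was present in 3.44% of 32851 promoter windows and in 4 of the 49 members with a window (Eif2ak2, Eif2s1, Eif2s3x and Eif3a). The Eef2 window holds the E-box, the TATA box and 2 overlapping cAMP response element cores, 1 on each strand. The E-box was present in 12 members (24.5%, against 7.15% of all windows), the cAMP response element core in 10 (20.4% against 7.51%), the ETS motif in 9 (18.4% against 3.89%) and the TATA box in 5 (10.2% against 13.6%). These are counts of letters in fixed windows. A member counted once if any of its windows held the motif, while the share of all windows was taken window by window. A gene with several windows has more chances to match, so both shares are not directly comparable. The size of this effect was not estimated.

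Library totals ran from 16392876 to 25814364 reads on genes. The tissue labels held: the 7 astrocyte markers were higher in IP than in INPUT, by 2.87 to 4.5 on the log2 scale in naïve mice, and the 6 neuron, 5 oligodendrocyte, 4 microglia and 4 endothelial markers were all lower. The summed level of the 3 choroid plexus markers was 123 CPM in naïve IP library 2 and between 1.33 and 8.56 CPM in the other 7 IP libraries. In INPUT it was 16.2 CPM in naïve library 3 and between 3.08 and 4.88 CPM in the other libraries. Over the 13339 genes tested in naïve mice, the median log2 ratio of IP to INPUT was −0.64, so a ratio of a member is given both as deposited and after the libraries were rescaled to a common median ratio. In bulk samples fewer cells of a type and less RNA per cell cannot be told apart.

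The first comparison asked which translation factor transcripts were enriched on astrocyte ribosomes. In naïve mice 38 of the 61 members were lower in IP than in INPUT, 7 were higher and 16 did not pass the test (limma on log2(CPM + 0.1), Benjamini-Hochberg adjusted p under 0.05 over all genes tested). Among all genes 64.0% were lower and 23.7% higher. After rescaling, 17 members were lower and 33 higher, with 42.2% and 42.0% of all genes, and after quantile normalization 22 were lower and 30 higher. The median log2 ratio of the members was −0.38, above the all-gene median of −0.64, and 39 of the 61 members lay above that median. The 7 higher members and 17 of the 38 lower ones kept their call after rescaling, and 11 lower ones turned to higher, namely Eef2, Eif2a, Eif2ak1, Eif2ak3, Eif2ak4, Eif2b3, Eif2d, Eif2s1, Eif3g, Eif3i and Eif6. The members together took 6020 ± 126 CPM of naïve IP (SD, n = 4) and 8889 ± 230 CPM of naïve INPUT, and the ranges, 5867 to 6170 and 8670 to 9212 CPM, did not overlap. A large part of this gap was a single gene, Eef1a2, with a mean of 58.7 CPM in naïve IP and 1343 CPM in naïve INPUT.

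**Figure D1:**
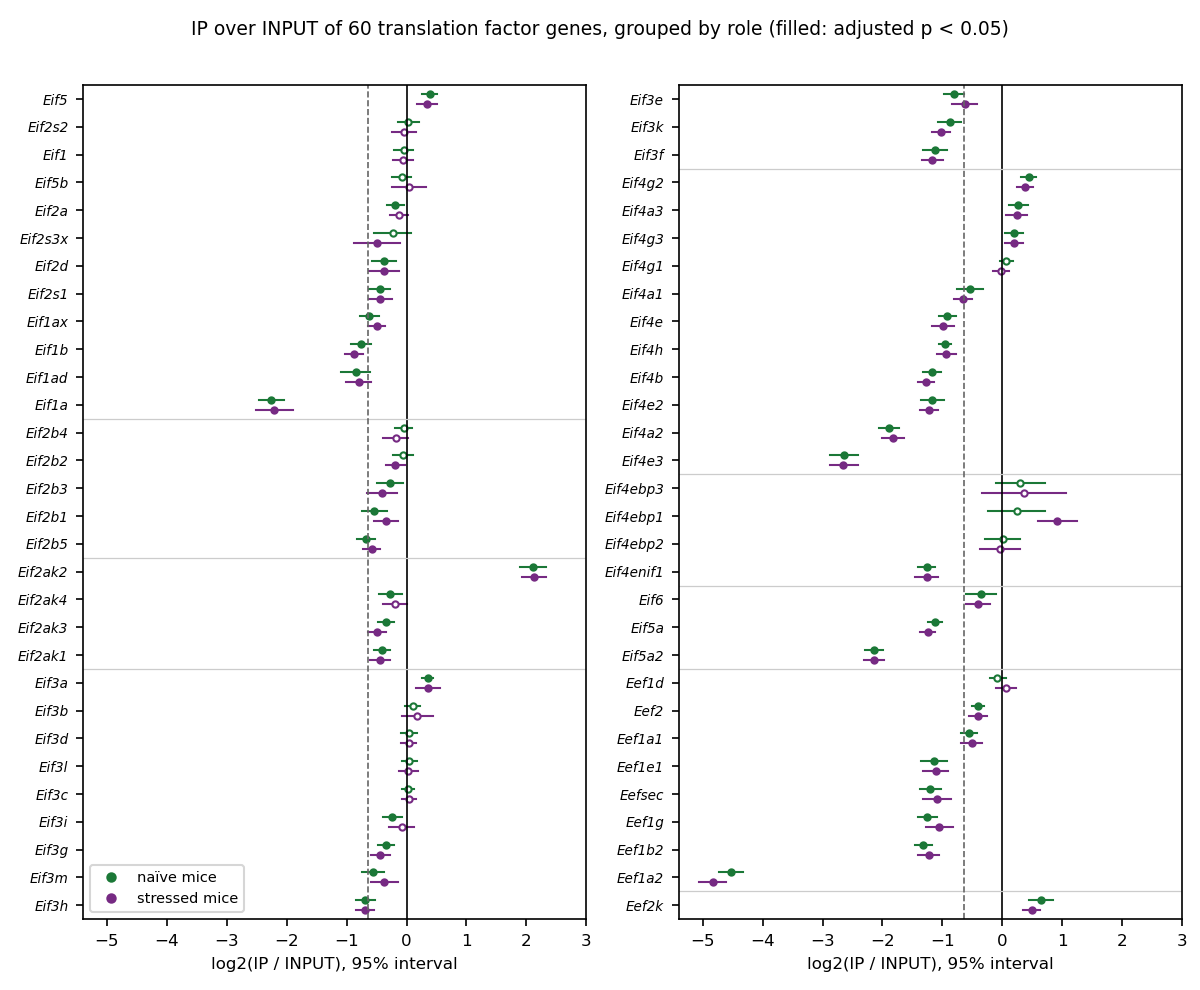
Log2 ratio of IP to INPUT with its 95% interval for 60 members in naïve (green) and stressed mice (purple), in blocks by role. Filled points passed the test (adjusted p under 0.05), the dashed line is the all-gene median in naïve mice (−0.64), and Eif2s3y is left out because its interval spans the plot. Eef1a2 sits furthest left at −4.52 and −4.83, and Eif2ak2 furthest right at 2.11 and 2.13.

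The elongation factors had a median ratio of −1.17 in naïve and −1.07 in stressed mice, near that of the eIF5A and eIF6 genes (−1.12 and −1.24). Of the 8, 7 were lower in IP in naïve mice and 1 did not pass (64.0% of all genes were lower and 23.7% higher). After rescaling 5 were lower and 2 higher (42.2% and 42.0% of all genes). Eef1a2, the neuronal and muscle form of the GTPase that delivers aminoacyl-tRNA, was read at 60.8, 46.9, 59.8 and 67.4 CPM in naïve IP libraries 2, 8, 11 and 13 and at 1340, 1254, 1475 and 1304 CPM in naïve INPUT libraries 3, 7, 14 and 16. All 4 IP values lay far below all 4 INPUT values. The log2 ratio was −4.52 ± 0.09 (SE; limma adjusted p = 4e-14), a 23.0-fold lower level, which is inside the range of the 6 neuron markers (−4.74 to −3.88). Eef1a1, the form of most other cells, was at 589, 625, 623 and 609 CPM in IP and at 897, 823, 1006 and 869 CPM in INPUT, again without overlap. Its log2 ratio was −0.55 ± 0.06 (adjusted p = 1.5e-06), close to the all-gene median, and after rescaling it was 0.09 and no longer passed, while quantile normalization kept it lower, at −0.61. Eef2, the translocase, was at 889, 907, 847 and 899 CPM in IP and at 1179, 1177, 1183 and 1175 CPM in INPUT. Its log2 ratio was −0.41 ± 0.05 (adjusted p = 1.6e-06), which rescaling turned to higher, at 0.23, and quantile normalization kept lower, at −0.64. The exchange factor subunits of eEF1 divided, since Eef1b2 (−1.32 ± 0.07) and Eef1g (−1.25 ± 0.07) were lower under both scalings, while Eef1d, at −0.08 ± 0.06, did not pass before rescaling and was higher after it, at 0.57. Of Eef1g, 58.5% of the 69-base stretches occur elsewhere in the annotated transcripts, and only uniquely mapped reads were counted, so its level is uncertain. Eefsec, which delivers selenocysteine, was at −1.20 ± 0.08, and Eef1e1, named as an elongation factor but known as a scaffold protein of the tRNA synthetase complex, at −1.14 ± 0.10. Eef2k, the calcium and calmodulin dependent kinase of eEF2, went the other way, with 78.0, 76.9, 83.9 and 78.2 CPM in IP and 45.5, 45.6, 62.1 and 51.5 CPM in INPUT. Each IP value was above each INPUT value, and the log2 ratio was 0.64 ± 0.09 (adjusted p = 1.4e-05).

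The kinases of eIF2alpha, which start the integrated stress response, differed widely. Eif2ak2 (PKR, the sensor of double-stranded RNA) was at 45.2, 40.2, 34.6 and 44.3 CPM in naïve IP and at 9.43, 10.6, 8.48 and 9.10 CPM in naïve INPUT. The groups were far apart, and the log2 ratio of 2.11 ± 0.10 (adjusted p = 1.7e-10), a 4.33-fold higher level, was the highest of the 61 members, below the 2.87 of the lowest astrocyte marker. The other kinases were each lower as deposited and higher after rescaling, and after quantile normalization Eif2ak3 and Eif2ak4 were higher and Eif2ak1, at 0.12, did not pass. Of all genes 64.0% were lower as deposited and 42.0% higher after rescaling. Eif2ak1 (HRI, the heme-regulated kinase) was at 56.3 to 66.4 CPM in IP and 77.4 to 85.5 CPM in INPUT, a log2 ratio of −0.41 ± 0.06. Eif2ak3 (PERK, the kinase of the endoplasmic reticulum) was at 29.4 to 31.2 and 37.0 to 40.0 CPM, a ratio of −0.34 ± 0.06. Eif2ak4 (GCN2, the sensor of uncharged tRNA) was at 20.5 to 25.4 and 25.4 to 30.3 CPM, a ratio of −0.27 ± 0.09. For each of these kinases all IP values lay below all INPUT values, and the share of all genes with such a separation was not counted.

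The eIF2 complex and the factors that select the start codon held 13 members, of which 7 were lower, 1 was higher and 5 did not pass. Of all genes 64.0% were lower and 23.7% higher. Rescaling made 8 higher and 1 lower (42.0% and 42.2% of all genes). Eif5, which stimulates GTP hydrolysis by eIF2, was the highest of them, with 334, 309, 348 and 372 CPM in IP and 261, 257, 261 and 260 CPM in INPUT. Its values did not overlap, and the log2 ratio was 0.39 ± 0.06 (adjusted p = 2.5e-05). Eif1a was the lowest, at 6.46, 7.03, 8.34 and 7.09 CPM in IP and 34.7, 31.7, 37.0 and 36.6 CPM in INPUT, with a ratio of −2.26 ± 0.10 (adjusted p = 4.5e-11). It is a paralogue of Eif1ax, the scanning factor encoded on the X chromosome, which was at −0.62 ± 0.07. The phosphorylated subunit itself, Eif2s1, had a ratio of −0.45 ± 0.08 (26.9 to 33.9 against 38.6 to 43.8 CPM). Eif1, which guards start codon choice, was at −0.05 ± 0.07 (30.4 to 36.0 against 32.1 to 36.7 CPM), and these ranges overlapped. Of the 5 subunits of eIF2B, the exchange factor that recharges eIF2, 3 were lower, none was higher and 2 did not pass (64.0% of all genes were lower and 23.7% higher). Rescaling left 0 lower and 3 higher (42.2% and 42.0% of all genes). They ranged from Eif2b5, the main catalytic subunit (−0.68 ± 0.07, 34 to 40.3 against 55.8 to 63.1 CPM), to Eif2b4 (−0.05 ± 0.07, 26.4 to 28.4 against 26.8 to 28.7 CPM).

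The gamma subunit of eIF2 is encoded by a gene on the X and another on the Y chromosome. In each group 2 libraries read Eif2s3y at 15.1 to 31.6 CPM, and the other 2 held 0 reads of it, except 1 read in naïve INPUT library 16 (0.0509 CPM). The libraries without Eif2s3y were those with Xist above 10 CPM, and the sex of the mouse is not given per library. In IP, Eif2s3x was at 9.37 to 11.6 CPM in the 4 Xist-high libraries and at 7.21 to 8.21 CPM in the 4 others, without overlap. In INPUT it was at 11.7 to 15.3 and 8.95 to 11.0 CPM, also without overlap. Of Eif2s3x, 35.8% of the 69-base stretches occur elsewhere in the annotated transcripts, and only uniquely mapped reads were counted, so its own level and the sum of both copies are uncertain. Since each group held 2 libraries of each kind, a comparison of groups for Eif2s3y carried a standard error of 2.09 or more on the log2 scale and is not read further.

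**Figure D2:**
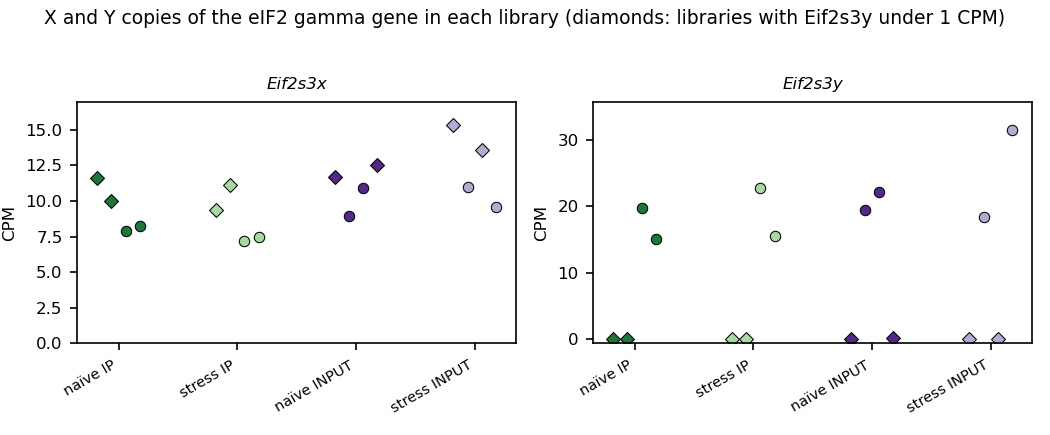
Level in CPM of Eif2s3x (left) and Eif2s3y (right) in each of the 16 libraries by group. Diamonds are the 8 libraries with Eif2s3y under 1 CPM, and in each fraction their Eif2s3x lay above that of the 8 others, shown as circles (9.37 to 11.6 against 7.21 to 8.21 CPM in IP).

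Of the 12 members of eIF3, the scaffold of initiation, 7 were lower in IP, 1 was higher and 4 did not pass (64.0% of all genes were lower and 23.7% higher). After rescaling 7 were higher and 2 lower (42.0% and 42.2% of all genes). Eif3a, the largest subunit, was at 288, 295, 294 and 294 CPM in IP and 226, 239, 231 and 226 CPM in INPUT, a log2 ratio of 0.35 ± 0.05 (adjusted p = 6.6e-06) without overlap. Eif3b, Eif3c, Eif3d and Eif3l lay between 0.02 and 0.10 and did not pass before rescaling. Eif3f was the lowest, at 30.7, 27.5, 30.2 and 32.9 CPM in IP and 60.4, 58.6, 78.7 and 67.4 CPM in INPUT (−1.12 ± 0.09, adjusted p = 6.1e-08), and with Eif3k it was among the 2 subunits still lower after rescaling. The subunits of this single complex thus ran from −1.12 to 0.35.

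Of 11 members of the cap-binding complex eIF4F and its helper proteins, 7 were lower, 3 were higher and 1 did not pass. This was near the shares of all genes, 64.0% lower and 23.7% higher. Rescaling left 6 lower and 4 higher (42.2% and 42.0% of all genes). The higher members were Eif4g2, Eif4g3 and Eif4a3. Eif4g2, an eIF4G relative that lacks the eIF4E site, was at 668, 693, 686 and 718 CPM in IP and 511, 550, 459 and 526 CPM in INPUT (0.44 ± 0.06, adjusted p = 9.6e-06), with no overlap. Eif4g3 was at 0.20 ± 0.07, with overlapping ranges, and Eif4g1, the main scaffold, at 0.07 ± 0.05 (369 to 411 against 363 to 391 CPM), which did not pass. Eif4a3, the helicase of the exon junction complex rather than of initiation, was at 0.27 ± 0.07. The cap-binding proteins were all lower. Eif4e was at 72.1, 69.8, 64.1 and 70.4 CPM in IP and 144, 122, 133 and 124 CPM in INPUT (−0.92 ± 0.06, adjusted p = 1e-08). Eif4e3 was at 5.24, 3.99, 4.11 and 3.91 CPM in IP and 27.3, 26.0, 29.4 and 26.2 CPM in INPUT (−2.64 ± 0.11, adjusted p = 3.6e-11), second only to Eef1a2. The helicase Eif4a2 was at 150, 141, 118 and 130 CPM in IP and 503, 458, 536 and 485 CPM in INPUT (−1.89 ± 0.07, adjusted p = 2e-11). Eif4a1, the other form of this helicase, was at 28.9, 27.0, 30.1 and 35.7 CPM in IP and 40.5, 39.4, 49.9 and 46.8 CPM in INPUT (−0.54 ± 0.10, adjusted p = 0.00018), and 0.10 after rescaling, which did not pass. The helicase cofactors Eif4b (−1.17 ± 0.07) and Eif4h (−0.96 ± 0.05) were lower under both scalings.

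The 4E-binding proteins had the lowest mean levels of the members in CPM, which takes no account of transcript length, and standard errors of 0.14 to 0.22. Of Eif4ebp3, 64.5% of the 69-base stretches occur elsewhere in annotated transcripts, so reads of it could have been discarded as not unique. In naïve mice Eif4ebp1 was at 3.29 to 4.97 CPM in IP and 2.29 to 4.94 CPM in INPUT (0.25 ± 0.22), Eif4ebp2 at 7.48 to 10.3 and 6.83 to 9.56 CPM (0.01 ± 0.14), and Eif4ebp3 at 2.30 to 2.63 and 1.70 to 2.75 CPM (0.30 ± 0.19). All these ranges overlapped and no ratio passed, although after rescaling all 3 did, as higher, at 0.87, 0.64 and 0.91. Of all genes 42.0% were higher after rescaling. Eif4enif1, which carries eIF4E into the nucleus and into P-bodies, was lower, at 24.1, 23.0, 22.8 and 25.1 CPM against 58.3, 59.0, 54.8 and 56.2 CPM (−1.26 ± 0.06, adjusted p = 2.4e-10). Among the late factors, Eif5a, the hypusine-bearing factor that relieves stalled ribosomes, was at 92.6, 90.6, 91.6 and 99.3 CPM in IP and 204, 197, 213 and 203 CPM in INPUT (−1.12 ± 0.05, adjusted p = 9.8e-11). Its paralogue Eif5a2 was at 25.1, 26.8, 28.2 and 25.7 against 121, 121, 105 and 122 CPM (−2.14 ± 0.07, adjusted p = 1.9e-12). Both pairs of groups were apart. Eif6, which keeps the ribosomal subunits from joining, had overlapping ranges (18.4 to 23.3 and 21.5 to 30.6 CPM) and a ratio of −0.36 ± 0.11 (adjusted p = 0.0095), and 0.28 after rescaling.

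**Figure D3:**
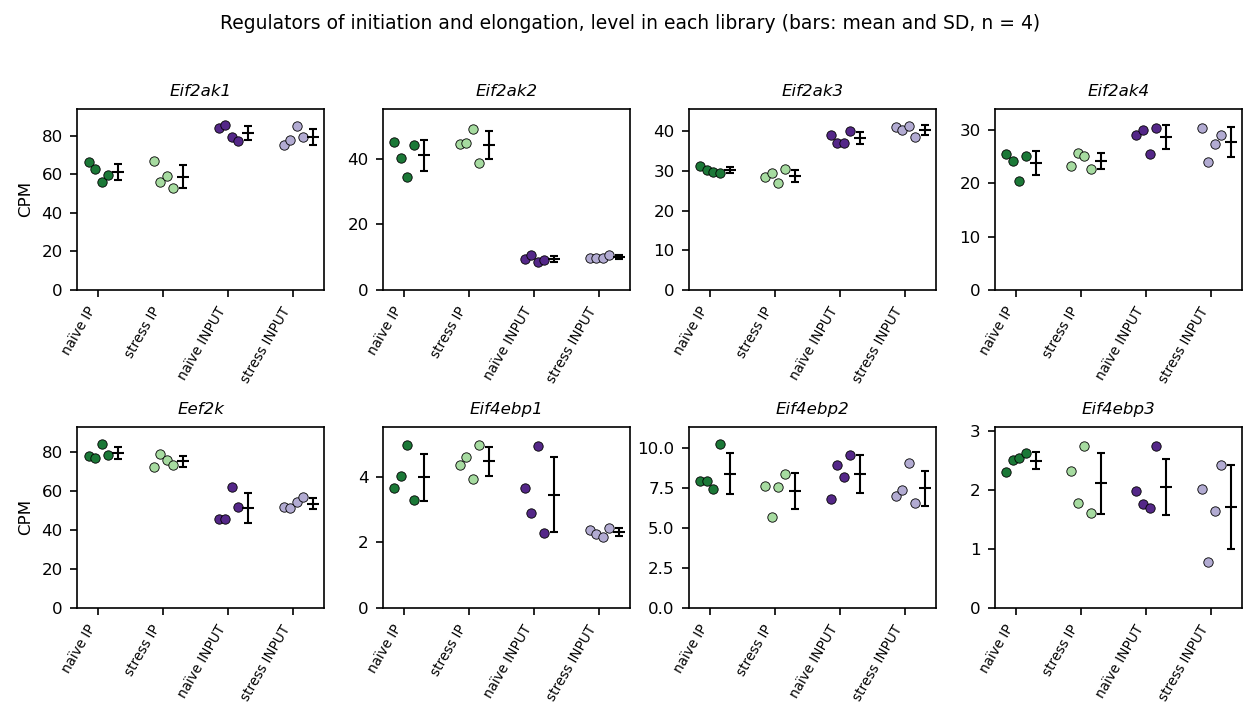
Level in CPM of the 4 eIF2alpha kinases, eEF2 kinase and the 4E-binding proteins in each library, with the mean and SD of the 4 libraries of each group. Eif2ak2 was at 34.6 to 49.2 CPM in the 8 IP libraries and at 8.48 to 10.8 CPM in the 8 INPUT libraries, while the 4E-binding proteins overlapped in most groups.

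Paralogues were next compared as shares, on the scale of CPM per kilobase of annotated exon, which needs no scaling between libraries. Eef1a2 made up 56.3% ± 0.393 (SD, n = 4) of the Eef1a1 and Eef1a2 sum in naïve INPUT and 7.64% ± 1.14 in naïve IP. Eif4a2 made up 86.2% ± 0.971 of the Eif4a1 and Eif4a2 sum in INPUT and 71.0% ± 3.89 in IP. Eif5a2 was 18.7% ± 1.53 of its pair in INPUT and 10.2% ± 0.711 in IP, Eif1a was 46.5% ± 1.02 of the sum with Eif1ax in INPUT and 21.7% ± 2.31 in IP, and Eif4e3 was 29.8% ± 1.31 of the sum with Eif4e in INPUT and 11.3% ± 1.24 in IP. In each of these 5 pairs the IP and INPUT shares did not overlap, in naïve as in stressed mice (exact permutation test, two-sided, p = 0.029 each, which is the lowest value with 4 against 4 libraries). Eif1b was likewise lower in IP, at 76.9% ± 1.37 of the sum with Eif1 in naïve INPUT and 66.9% ± 2.43 in naïve IP (exact permutation p = 0.029). Eif4g2 went the other way, at 48.1% ± 1.4 of the sum with Eif4g1 in naïve INPUT and 54.4% ± 1.41 in naïve IP (exact permutation p = 0.029). Eif1a, Eif4e3 and Eif4g2 were named for their extreme naïve ratio, and some other pair genes were chosen after their values were seen. The exact p of such shares in naïve mice is therefore not independent of the choice. Eif4g3 was at 39.6% in naïve INPUT and 41.7% in naïve IP of its sum with Eif4g1 (exact permutation p = 0.11). In stressed mice its share was 37.8% in INPUT and 41.3% in IP, without overlap (exact permutation p = 0.029). The share of Eif4e2 against Eif4e was 35.3% ± 2.15 in INPUT and 31.4% ± 1.95 in IP (exact p = 0.086). No difference in share between stressed and naïve mice passed, where the exact p was 0.23 or more in IP and 0.057 or more in INPUT over the 9 pairs examined. The shares depend on how unique each transcript is: 46.0% of the 69-base stretches of Eef1a1 and 63.4% of those of Eif4a1 occur elsewhere in annotated transcripts, against 0.0% and 9.12% of those of Eef1a2 and Eif4a2. Where reads of Eef1a1 and Eif4a1 were discarded as not unique, the shares of Eef1a2 and Eif4a2 are too high, by an amount that was not estimated and that need not be equal in IP and INPUT.

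**Figure D4:**
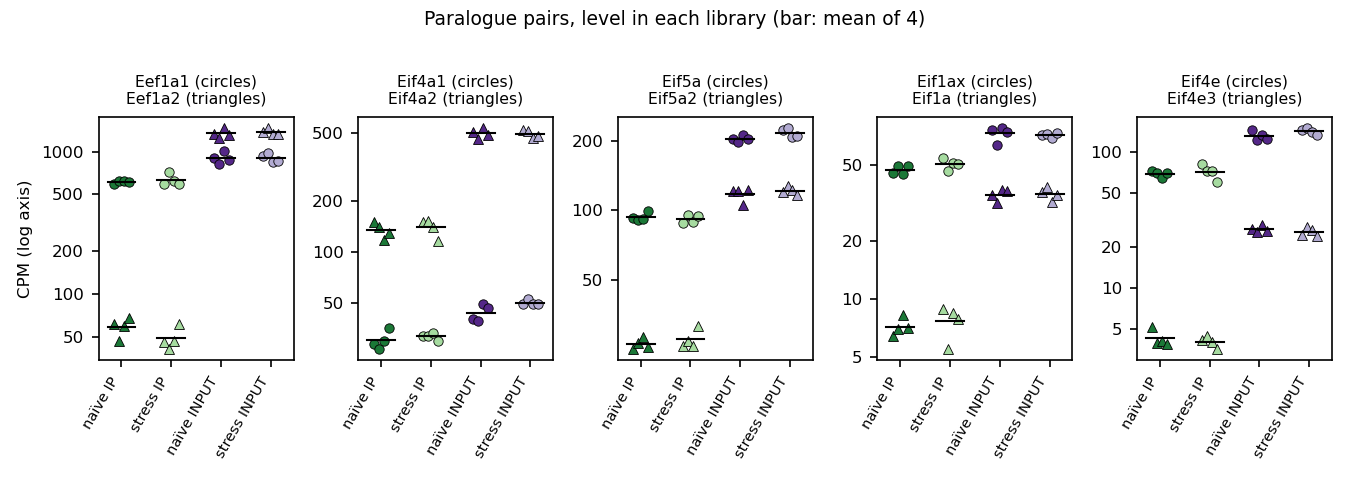
Level in CPM (log axis) of 5 paralogue pairs in each library by group, with the first gene as circles, the second as triangles and the mean of 4 libraries as a bar. In each pair the distance between the genes differs between IP and INPUT; Eef1a2 lies above Eef1a1 in INPUT (1254 to 1475 against 823 to 1006 CPM) and below it in IP.

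The ratios were alike in stressed mice, whose libraries are separate from those of naïve mice. There 37 members were lower (62.5% of all genes), 8 were higher (23.6% of all genes) and 16 did not pass, and after rescaling 18 were lower (41.3% of all genes) and 32 higher (41.0%). The sign was the same in 56 of 61 members, 35 were lower and 7 higher in both conditions, and none passed in opposite directions. In naïve mice alone 64.0% of all genes were lower and 23.7% higher. The share of all genes called alike in both conditions was not counted. Across the 61 genes, which are not independent replicates, the ratios had a Pearson's r of 0.99, and the median gap between both conditions was 0.07 on the log2 scale. The 6 members that passed in one condition only were Eif2a, Eif2ak4, Eif3i, Eif2b2, Eif2s3x and Eif4ebp1. Eef1a2 was 28.5-fold lower (95% interval of the log2 ratio, −5.06 to −4.61), and Eif2ak2 was 4.37-fold higher (1.93 to 2.33). The largest gap was that of Eif4ebp1, at 0.25 in naïve and 0.92 ± 0.15 in stressed mice. The annotated exon length of the members, 744 to 8188 bases, had a Spearman's rho of 0.11 with the naïve ratio over the 61 genes, against 0.03 over 12700 genes. The 17 members of 4000 bases or more had a median ratio of −0.27, and the 27 of under 2500 bases one of −0.36.

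The second question was whether the swim changed these transcripts. No member passed in IP, where 55 of 12501 genes did (0.44%), and none passed in INPUT, where 6 of 13577 did (0.0442%). At an unadjusted p under 0.05 there was 1 member in IP (8.27% of all genes) and there were 4 in INPUT (5.03% of all genes). The values of stressed and naïve libraries did not overlap for 1 member in IP (5.0% of all genes) and 1 in INPUT (2.87% of all genes). limma-voom on the recovered reads also called 0 members in each fraction, with 1 in IP and 3 in INPUT at an unadjusted p under 0.05. The sums over the members of a role were also compared between stressed and naïve mice. Those of the eIF4E regulators in INPUT were 69.6 to 72.6 CPM in naïve and 60.1 to 68.2 CPM in stressed mice. Those of eIF5A and eIF6 in INPUT were 339 to 352 and 353 to 386 CPM. Neither pair of ranges overlapped (exact permutation p = 0.029 each, the lowest value possible, not adjusted over the roles). For the other roles the exact permutation p was 0.34 or more in INPUT, and in IP it was 0.11 or more for every role. Most of the eIF4E regulator sum was Eif4enif1, not the 4E-binding proteins. The INPUT mean of Eif4enif1 was 57.1 CPM without the swim and 52.8 CPM after it. The median log2 change of the members was 0.01 in IP and 0.01 in INPUT, with 31 and 32 of 61 above 0. The 95% interval of the change lay within ±0.5 on the log2 scale for 56 members in IP and 58 in INPUT. The exceptions in IP were Eef1a2, Eif2s3y, Eif4ebp1, Eif4ebp2 and Eif4ebp3, and in INPUT Eif2s3y, Eif4ebp1 and Eif4ebp3. For the eIF2alpha kinases the changes ran from −0.07 to 0.11 in IP and from −0.05 to 0.10 in INPUT, and for Eef2k they were −0.08 ± 0.06 and 0.07 ± 0.09.

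**Figure D5:**
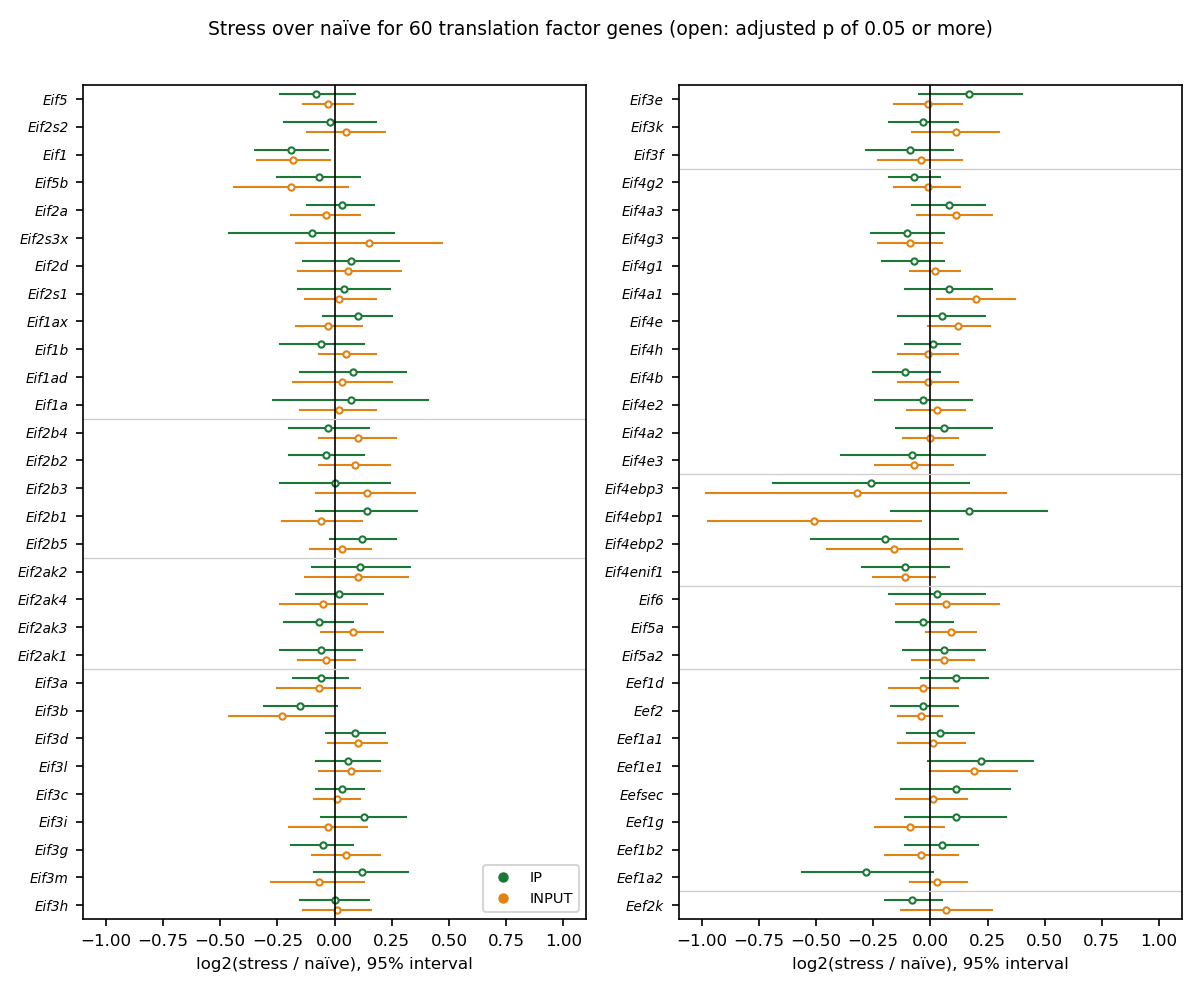
Log2 change from naïve to stress with its 95% interval for 60 members in IP (green) and INPUT (orange), in blocks by role. All points are open, since no adjusted p was under 0.05, and Eif2s3y is left out because its interval runs beyond the axis. Eif4ebp1 in INPUT sits furthest from 0, at −0.51.

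The members with the smallest p were as follows. Eif1 was at 30.4, 33.0, 31.4 and 36.0 CPM in naïve IP and 30.5, 27.7, 27.8 and 28.4 CPM in stress IP, and at 32.5, 33.9, 32.1 and 36.7 CPM in naïve INPUT and 27.0, 31.1, 31.8 and 29.5 CPM in stress INPUT. All stress INPUT values lay below the naïve ones, and in IP 1 stress value lay just above the lowest naïve value. The log2 change was −0.19 ± 0.07 in IP (limma adjusted p = 0.51, exact permutation p = 0.057) and −0.18 ± 0.08 in INPUT (adjusted p = 0.96, exact permutation p = 0.029). Of Eif1, 27.1% of the 69-base stretches occur elsewhere. Eef1e1 was at 6.46, 6.72, 7.17 and 7.21 CPM in naïve IP and 7.80, 8.78, 8.17 and 7.39 CPM in stress IP, where the groups did not overlap. Its change was 0.22 ± 0.10 in IP (adjusted p = 0.63) and 0.19 ± 0.09 in INPUT (adjusted p = 0.98). Eif3b was at −0.15 ± 0.07 in IP (adjusted p = 0.64) and −0.23 ± 0.11 in INPUT (adjusted p = 0.97), where stress INPUT library 1 was lowest at 45.0 CPM. Eif2b5 was at 0.12 ± 0.07 in IP (adjusted p = 0.69). Eif4a1 in INPUT was at 40.5, 39.4, 49.9 and 46.8 CPM in naïve and 49.6, 53.3, 49.5 and 49.9 CPM in stressed mice, a change of 0.20 ± 0.08 (adjusted p = 0.92) with overlapping values.

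Eef1a2 had the largest change of any member in IP. It was at 60.8, 46.9, 59.8 and 67.4 CPM in naïve and 45.6, 40.8, 46.7 and 61.4 CPM in stress IP, so that stress library 15 lay among the naïve values. The log2 change was −0.28 ± 0.13 (adjusted p = 0.62, exact permutation p = 0.17), and in INPUT it was 0.03 ± 0.06. The 6 neuron markers moved alongside it: their sum was 461, 423, 473 and 551 CPM in naïve IP libraries 2, 8, 11 and 13 and 372, 334, 390 and 492 CPM in stress IP libraries 4, 5, 6 and 15, and all 6 had a change below 0, from −0.33 (Snap25) to −0.06 (Gad2), none of which passed the test. None of these markers was at 0 in IP. Their sum in INPUT was 9619 to 11272 CPM, and their part in the Eef1a2 values of IP was not tested. Without stress IP library 15 the change of Eef1a2 was −0.39 (adjusted p = 0.14).

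Eif4ebp1, which sequesters eIF4E when mTORC1 is inactive, had the largest change in INPUT. It was at 3.67, 2.88, 4.94 and 2.29 CPM in naïve and 2.38, 2.26, 2.15 and 2.43 CPM in stress INPUT, which overlapped in its lowest naïve value (−0.51 ± 0.22, limma adjusted p = 0.97, exact permutation p = 0.086). In IP it was at 3.67, 4.03, 4.97 and 3.29 CPM in naïve and 4.37, 4.59, 3.93 and 4.98 CPM in stressed mice (0.17 ± 0.15, adjusted p = 0.82). The difference between both stress effects was 0.68 ± 0.27 (95% interval 0.10 to 1.25, limma adjusted p = 0.98). No member passed this test of the difference, where 3 of 13341 genes did (0.0225%), and Eif4ebp1 was the 1 member with an unadjusted p under 0.05; limma-voom called 0 and had 2 at that level. Between 39 and 127 reads per library stood behind Eif4ebp1.

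Translation genes outside the family were counted by list. Of 44 symbols of release and recycling factors, poly(A) binding proteins, the mTORC1 and MNK arm, the integrated stress response and factor modification, 42 were tested in naïve mice, where 29 were lower in IP and 5 higher (64.0% and 23.7% of all genes), and 14 were lower and 22 higher after rescaling (42.2% and 42.0% of all genes). In the stress comparisons 0 of 41 passed in IP and 0 of 42 in INPUT, with 6 and 3 at an unadjusted p under 0.05 (8.27% and 5.03% of all genes). The median change of these genes was 0.02 in both fractions, with a range from −0.27 to 0.52 in IP and from −0.10 to 0.63 in INPUT, so that the highest lay above the 0.22 of the highest family member in IP and the 0.20 of the highest in INPUT.

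The 1 CPM limit of the family fell in a gap. Just above it were Eif4ebp3 at a mean of 2.09 CPM, Eif4ebp1 at 3.55 CPM and Eif4ebp2 at 7.92 CPM, and below it Eif3j1 at 0.435 CPM (6 to 18 reads per library), Eif3j2 and Eif4e1b, both with 0 reads in all libraries. Of the 69-base stretches of Eif3j1 and Eif3j2, 51.8% and 88.5% occur elsewhere in annotated transcripts, so reads from them could have been discarded as not unique, and their low values do not show that this eIF3 subunit is little expressed.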

How the data were processed

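With STAR on mm10 the authors placed the reads, counted uniquely mapped fragments on RefSeq genes with HTSeq, and deposited per library the log2 CPM of 24060 genes, scaled to each library's total with a small constant added before the log2. After removal of that constant all values were whole reads (100% within 0.1), 16392876 to 25814364 per library. PCR reads are not independent molecules.

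Groups of 4 libraries were compared with limma 3.58.1 (R 4.3.3) on log2(CPM + 0.1) for genes averaging over 1 CPM across those 8 libraries (16 for the difference of the stress effects), with a variance trend and Benjamini-Hochberg adjustment over all genes. Log2 changes of low genes are understated on this scale. The study used limma-voom, which was an alternative here on recovered reads. Single values had two-sided exact permutation tests over 70 labelings. The methods name 8 mice for the 16 libraries, but neither the sex of each mouse nor which IP and INPUT libraries share one is given, so libraries were treated as independent, and the effect of shared mice on the IP over INPUT tests was not tested. Exon lengths, positions and shared 69-base stretches came from GENCODE M21 (GRCm38) for all 64 symbols, and promoters from RefSeq (GRCm38.p6). The 2 repeated symbols of the tables were not members.

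The members and lists were chosen with earlier results of these data known. Named were 20 preset regulators and paralogues, the highest and lowest naïve IP to INPUT ratio of each role, the 5 smallest p per fraction under stress, and 3 genes on each side of 1 CPM; other members and the second gene of some paralogue pairs were chosen after their values were seen. Alternatives were pseudocounts of 1 and 0.01, no filter, a mean above 5 CPM, median-ratio rescaling, quantile normalization, limma-voom, no variance trend, array weights, all 16 libraries in one model, sex as read from Xist, and each library left out. limma-voom with all 16 libraries was added after seeing the data.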

Additional observations from a re-analysis of the deposited data

Results flagged for a closer look

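In 140 sets of 4 libraries over the named genes, 7 held a library whose gap to the nearest other exceeded the 95% limit of Dixon's test, where chance alone gives about 7. In stress INPUT, Eif2ak2 was highest in library 12 at 10.8 CPM (others 9.74 to 9.82), and library 9 was highest for Eif3f at 69 CPM (61.7 to 62.7) and for Eif4a1 at 53.3 CPM (49.5 to 49.9). In naïve INPUT, Eif2b4 was lowest in library 3 at 26.8 CPM (28.5 to 28.7), Eif5a2 was lowest in library 14 at 105 CPM (121 to 122), and Eif3j1, which is under 1 CPM, was highest in library 14 at 0.748 CPM (0.353 to 0.395). In naïve IP, Eif4e3 was highest in library 2 at 5.24 CPM (3.91 to 4.11), the library where the choroid plexus markers were highest. The part of these markers in this value was not tested. No named member had all stress values above all naïve values in 1 fraction and below them in the other. Few could have, since only 1 member in IP and 1 in INPUT had groups without overlap. The mean change could still differ in sign, as for Eif4ebp1, at 0.17 in IP and −0.51 in INPUT with overlapping values.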

How the results depend on the processing

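The scale between IP and INPUT decided many calls. Of the members in naïve mice 7 were higher and 38 lower as deposited, 33 and 17 after median-ratio rescaling, and 30 and 22 after quantile normalization. In stressed mice the counts were 8 and 37, 32 and 18, and 29 and 21. The other settings tried kept these counts within 1.5 times, and leaving out 1 library gave 6 to 8 higher and 36 to 39 lower in naïve mice and 7 to 8 and 35 to 38 in stressed mice. The signs that follow were checked only for the genes named by the preset rules above. Among these, the naïve log2 ratio changed sign under rescaling and quantile normalization for Eef1d (0.57 and 0.47), Eif1 (0.59 and 0.54), Eif2ak1 (0.23 and 0.12), Eif2ak3 (0.30 and 0.23), Eif2ak4 (0.37 and 0.33), Eif2b4 (0.59 and 0.54), Eif2s1 (0.19 and 0.12), Eif2s3x (0.41 and 0.48), Eif2s3y (0.07 and 0.36), Eif4a1 (0.10 and 0.04) and Eif6 (0.28 and 0.25). Under rescaling alone it did so for Eef1a1 (0.09) and Eef2 (0.23). Further members outside those rules changed sign too, such as Eif2a (0.46 and 0.37) and Eif5b (0.56 and 0.43). Array weights gave 0.43 for Eif2s3y and 0 for Eif4ebp2. Leaving out a library gave −1.62 to 0.99 for Eif2s3y and −0.09 to 0.07 for Eif4ebp2. Without naïve IP library 2 or naïve INPUT library 7 Eif2s3x passed at −0.33 (limma adjusted p = 0.038 and 0.046), and without naïve INPUT library 16 Eif4ebp3 passed at 0.44 (adjusted p = 0.041). The cause of each change beyond the scaling itself was not tested.

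No member passed a stress comparison or the test of their difference under any setting or with any library left out, and the smallest adjusted p was 0.14, for Eef1a2 in IP without stress IP library 15, where over all alternatives it ran from 0.14 to 0.95. With 4 libraries a group, members at a few CPM such as Eif4ebp3 had intervals too wide to exclude a change of 0.5 on the log2 scale. No paired analysis was possible because the library numbers of the 4 groups are all different.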
